A study of Danio rerio with 18 samples.

Results

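The comparison is between the H3K27ac enhancer regions of the adult zebrafish brain and those of the adult zebrafish intestine. All regions of the super-enhancer and typical-enhancer lists of both tissues were taken, 13235 in the brain and 15042 in the intestine, which together make 28277 of the 66306 regions in the series. H3K27ac is acetylation of lysine 27 of histone H3, and its genomic places were mapped by ChIP-seq, the sequencing of immunoprecipitated chromatin, in wild-type males of the AB strain. Brains came from fish aged 10 months, with 12 organs pooled per replicate and chromatin sheared to 175 bp. Intestines came from fish aged 1 year, with 5 organs pooled per replicate and chromatin sheared to 200 bp. Each tissue had 2 immunoprecipitated and 2 input libraries, and the antibody was the same product. Tissue, age, fragment size and preparation changed together here, so their parts in any difference between the lists cannot be told apart.

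Acetyltransferases such as p300 and CBP place this mark on the nucleosomes beside active enhancers and promoters. Super-enhancers are dense clusters of such sites joined into a single long region, and in mammals they often lie at genes that define a cell type. Whole brain mixes neurons, glia and vessels, and whole intestine mixes epithelium, smooth muscle, enteric neurons and immune cells, so a region in a list says that the mark was found in the organ and not in which of its cells. Gene annotation in the coordinates of the lists, build Zv9, was not used here. Regions are therefore given by position, and the tissue labels were not checked against marker genes.

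The deposited lists hold 1 value per region for each tissue and none per replicate. No test over fish was possible, and the depth behind each region is unknown. Shares carry exact Clopper-Pearson 95% intervals, which cover counting error over regions and not the difference between fish. The brain lists held 664 super-enhancers over 51.2 Mb and 12571 typical enhancers over 120 Mb. The intestine lists held 1145 super-enhancers over 69.2 Mb and 13897 typical enhancers over 128 Mb. No region overlapped another of its own tissue.

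A region was called shared when it overlapped a region of the other tissue on the same chromosome by at least 50% of the shorter of the pair, and private otherwise. Under this rule 6578 brain regions had an enhancer of either class in the intestine, 49.7% of the brain list (95% interval 48.8 to 50.6). Of the intestine regions, 6574 had an enhancer in the brain, 43.7% (42.9 to 44.5). The shared regions fell into 5929 groups linked by overlap. In 5028 of these groups, 84.8%, a single brain region faced a single intestine region. A brain region lay opposite several intestine regions in 404 groups, and an intestine region lay opposite several brain regions in 488. The shared part of the lists was thus, under this rule, mostly a matter of single regions facing each other, with splitting and joining in the rest. Facing regions need not be alike in extent, since only the shorter has to be covered by 50%. When the overlap had to reach 50% of both regions, 15.3% of brain and 13.5% of intestine regions were shared.

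In base pairs the likeness was lower. The lists had 61.1 Mb in common, which was 35.7% of the brain enhancers and 31.0% of the intestine enhancers. A further 110 Mb lay in the brain list alone and 136 Mb in the intestine list alone. The Jaccard index, the percentage of all listed base pairs that both tissues held, was 19.9% for all enhancers and 8.47% for super-enhancers. Stretches where both tissues had typical enhancers made up 45.8% of the common base pairs, and stretches where both had super-enhancers 15.4%. Brain typical enhancers inside intestine super-enhancers gave 26.6%, and brain super-enhancers over intestine typical enhancers 12.2%.

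Under this rule most super-enhancers of either tissue met typical enhancers only in the other. Of the 664 brain super-enhancers, 169 were also super-enhancers in the intestine (25.5%, 22.2 to 28.9), 339 met typical enhancers only (51.1%, 47.2 to 54.9) and 156 met no enhancer (23.5%, 20.3 to 26.9). Of the 1145 in the intestine, 170 had a brain super-enhancer (14.8%, 12.8 to 17.0), 755 met typical enhancers only (65.9%, 63.1 to 68.7) and 220 met none (19.2%, 17.0 to 21.6). Over all regions, 10.3% of the brain list and 5.64% of the intestine list lay at a super-enhancer of the other tissue. Typical enhancers were private more often. In the brain 6501 of them (51.7%) met no intestine enhancer, and in the intestine 8248 (59.4%) met no brain enhancer. There were more super-enhancers in the intestine list, and with equal numbers in both lists the shares that were super-enhancers in both tissues came to 20.9% of brain and 20.0% of intestine super-enhancers. When the overlap had to reach 50% of both regions, typical enhancers only became the state of 7.23% of brain and 18.0% of intestine super-enhancers, and 75.9% and 72.2% were private.

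**Figure D1:**
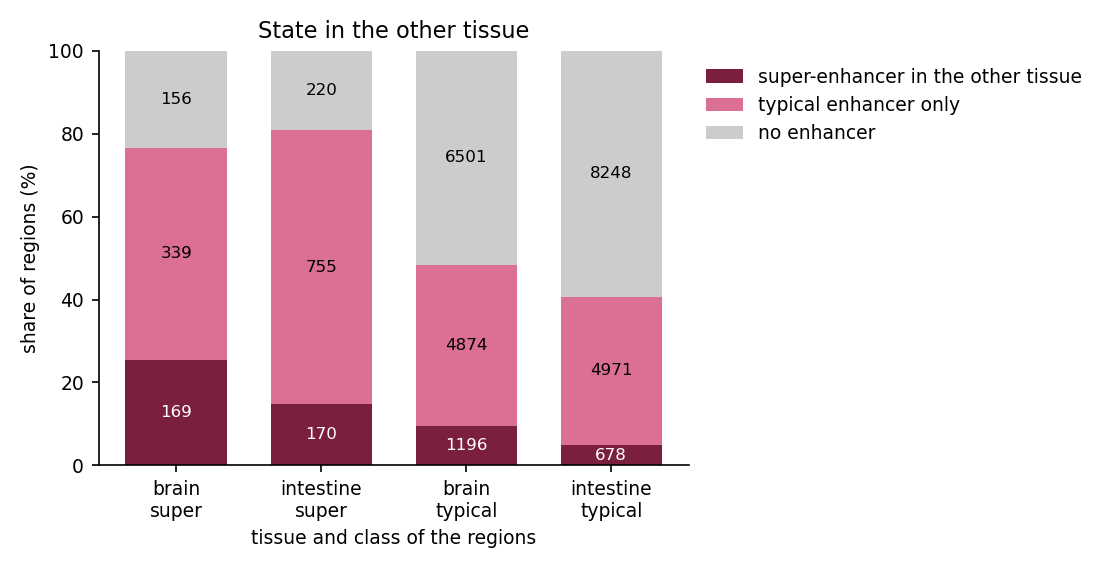
The bars give the percentage of brain and intestine regions, by class, that were a super-enhancer, typical enhancers only or no enhancer in the other tissue, with the number of regions written in each part. Typical enhancers only was the most frequent state of super-enhancers, with 339 of 664 in the brain and 755 of 1145 in the intestine.

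How much of a super-enhancer lay inside listed enhancers of the other tissue differed widely between these states. This is in part set by the grouping, since super-enhancers are longer than most typical enhancers. Listed regions join loci, so covered base pairs can include the spaces between loci. Brain super-enhancers that were also super-enhancers in the intestine had a median of 89.2% of their base pairs inside intestine enhancers (quartiles 73.6 and 100%). Brain super-enhancers facing typical enhancers only had a median of 17.7% (4.23 and 51.0%). The longest typical enhancer in the intestine that such a region met was 9.20 kb at the median, 0.125 of the length of the brain region. In the intestine the median covered share was 88.0% for super-enhancers in both tissues and 33.9% for those facing typical enhancers only, whose longest brain partner had a median length of 14.2 kb. The longest partner was the shorter of the pair for 97.1% of the brain regions and 91.8% of the intestine regions that faced typical enhancers only. With regions under 3 kb removed from both lists, the share of brain super-enhancers facing typical enhancers only was 33.1%, and the share facing none was 41.4%.

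Each region has a deposited signal, and this was ranked only within a tissue. Super-enhancers carry more signal than most typical enhancers, so the order between super and typical partners is largely fixed by the grouping and is given as a description. For the 339 brain super-enhancers facing typical enhancers, the longest intestine partner lay at a median of percentile 62.8 of all intestine regions by signal (quartiles 34.4 and 82.0). In 56 cases (16.5%) that partner carried more signal than the lowest intestine super-enhancer. For the 4874 brain typical enhancers that met typical enhancers only, the longest intestine partner had a median of percentile 63.0. In 733 of these (15.04%) it passed the lowest intestine super-enhancer, so both values were close to those of the 339. For the 169 brain super-enhancers with a super-enhancer in the intestine the median percentile of the partner was 98.0 (quartiles 96.3 and 99.3). In the opposite direction the brain partners of 755 intestine super-enhancers could be ranked in 410 cases, those whose signal matched their length. Their median was percentile 85.2, and 242 (59.0%) carried more signal than the lowest brain super-enhancer with a matching signal. For intestine typical enhancers that met typical enhancers only, the ranked brain partners had a median of percentile 75.9, and 39.2% passed that super-enhancer.

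The highest-ranked super-enhancers held by both tissues were long clusters, which is in part set by ranking on a signal summed over the region. Ranks by signal run over all regions of a tissue, in the brain also over those that share a signal. The region chr1:40724001-40966399 spanned 242 kb, had rank 2 by signal among all brain regions and was 79.7% covered by 3 intestine regions, the longest a super-enhancer of 161 kb with rank 29 in the intestine. The region chr25:35523001-35737199 spanned 214 kb in the brain with rank 9, and the intestine super-enhancer within it, chr25:35608801-35736799, spanned 128 kb with rank 5. These loci stood near the top in both tissues. The brain super-enhancer chr23:22973801-23213199 (239 kb, rank 5) met a 150 kb intestine super-enhancer of rank 24. The brain super-enhancer chr16:31300001-31495799 (196 kb, rank 4) met 5 intestine regions, of which the longest was a 47.2 kb super-enhancer of rank 421. In the intestine, chr13:50253801-50473199 (219 kb, rank 2) was 63.5% covered, and its longest brain partner was a 59.0 kb super-enhancer of rank 385. The intestine super-enhancer chr4:15454601-15681399 (227 kb, rank 4) met a 60.4 kb brain super-enhancer of rank 460, and chr5:34117201-34269999 (153 kb, rank 10) met one of 91.4 kb and rank 207. Partners of the same class could thus differ in rank. These regions were picked by signal in their own tissue, so a lower rank in the other follows in part from the choice. Over all super-enhancers held by both tissues, the longest super-enhancer partners lay near the top of their list, which follows from their class. Their median percentile by signal was 98.0 for the 169 brain super-enhancers and 97.7 for the 162 intestine ones with a ranked partner. Super-enhancers that faced typical enhancers lay as high. Their medians were 97.0 opposite brain typical enhancers and 98.3 opposite intestine typical enhancers with a ranked partner.

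The strongest brain super-enhancers that were typical in the intestine met very little there. The region chr22:19986401-20330799 was the longest brain region, 344 kb joined from 54 loci, with rank 3 in the brain. Intestine enhancers covered 3.43% of it, in 2 typical enhancers, and its density lay at percentile 30.9 of the brain list. The regions chr12:27755201-27970999 (216 kb, rank 7) and chr6:36897201-37145799 (249 kb, rank 8) were covered by 1.48% and 1.61%. The region chr20:38895401-39124999 (230 kb, rank 6) was covered by 13.0%, with 4 typical enhancers, the longest 12.6 kb. By the overlap rule, all 4 of these brain regions met typical enhancers only or none in each of the heart lists and in the testis list. Most brain super-enhancers facing typical enhancers only were alike in this. Of all 339, 11.8% were super-enhancers in the 1-year heart list, 8.85% in the 10-month heart list and 4.13% in the testis list. Over all 664 brain super-enhancers the same shares were 27.1%, 21.4% and 11.6%.

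The strongest intestine super-enhancers that were typical in the brain were less uniform. The intestine region chr17:37833201-38097799 (265 kb, rank 1) was 2.95% covered by 2 brain typical enhancers that were 7.80 kb long together. The region chr25:18752201-18913799 (162 kb, rank 7) was 11.0% covered by 4 brain regions. The region chr14:28932401-29115599 (183 kb, rank 3) was 45.8% covered by 6 brain regions and chr8:21141801-21314999 (173 kb, rank 6) was 61.0% covered by 3. All 4 of these intestine regions were super-enhancers in both heart lists. Of all 755 intestine super-enhancers facing typical enhancers only, 45.3% were super-enhancers in the 1-year heart list and 35.0% in the 10-month heart list. These shares were close to the 46.6% and 36.8% of all 1145 intestine super-enhancers. These 4 were picked for high signal, so no contrast with the brain is drawn from them. Longer typical enhancers that met a super-enhancer existed as well. The longest in the brain was chr2:35450801-35565799, 115 kb, facing a 134 kb intestine super-enhancer, and the longest in the intestine was chr7:47916601-48016799, 100.2 kb, facing a 62.0 kb brain super-enhancer.

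Private super-enhancers included the top brain region but none of the top intestine regions. The brain region chr12:25849601-26145399 (296 kb, 30 loci, signal 174255) had rank 1 in the brain. The nearest intestine enhancer lay 86.4 kb away, and no enhancer of either heart or the testis reached the overlap rule there. The next private brain super-enhancers were chr9:32277001-32395399 (118 kb, rank 17), chr11:31667601-31841399 (174 kb, rank 22) and chr13:28171801-28305199 (133 kb, rank 44). Intestine enhancers were 58.8, 59.4 and 31.6 kb away from them. Each of these 3 regions met typical enhancers of the testis and of the heart at 10 months. In the intestine the private super-enhancers began at rank 43 with chr7:21464401-21615799 (151 kb). They continued with chr18:46834601-46995599 (161 kb, 32 loci, rank 51), chr18:24880201-25015199 (135 kb, rank 63) and chr3:16415801-16502199 (86.4 kb, rank 89). The nearest brain enhancers were 65.4, 108, 10.8 and 135 kb away. The last of these intestine regions was a super-enhancer in both hearts and in the testis, which left the brain as the tissue without an enhancer there.

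Under the overlap rule used here private regions were shorter than shared ones. The median length of private brain super-enhancers was 59.9 kb, against 68.3 kb for shared ones, and private intestine super-enhancers had a median of 42.7 kb against 55.0 kb for shared ones. Among typical enhancers the medians were 3.0 kb private and 4.20 kb shared in the brain, and 2.80 kb private and 5.80 kb shared in the intestine. This order was lost when 50% of both regions had to overlap. Private super-enhancers then had medians of 68.9 kb in the brain and 53.6 kb in the intestine, above the 67.0 and 52.2 kb of all super-enhancers, and private typical enhancers had the medians of all typical enhancers, 3.40 and 3.60 kb. The shared share was also taken by length. From 20 to 50 kb, brain regions were shared in 73.4% of 169 super-enhancers and 64.1% of 1497 typical ones, with overlapping intervals of 66.0 to 79.9 and 61.6 to 66.6. From 50 to 100 kb the brain shares were 76.5% of 310 and 73.4% of 271, with intervals of 71.3 to 81.1 and 67.8 to 78.6 that overlapped as well. Over 100 kb, 130 of 155 brain super-enhancers were shared (83.9%, 77.1 to 89.3) and 7 of 14 brain typical enhancers (23.0 to 77.0%). In the intestine, 75.1% of 422 super-enhancers were shared and 57.7% of 1702 typical ones from 20 to 50 kb, and 86.5% of 453 and 71.4% of 220 from 50 to 100 kb. The intestine intervals did not overlap in either class of length. Overlap of intervals does not show that shares are equal, and differences between classes or between tissues were not tested. Under 5 kb, where most typical enhancers lie, the shared share ran from 40.9 to 45.7% in the brain and from 33.7 to 35.2% in the intestine.

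**Figure D2:**
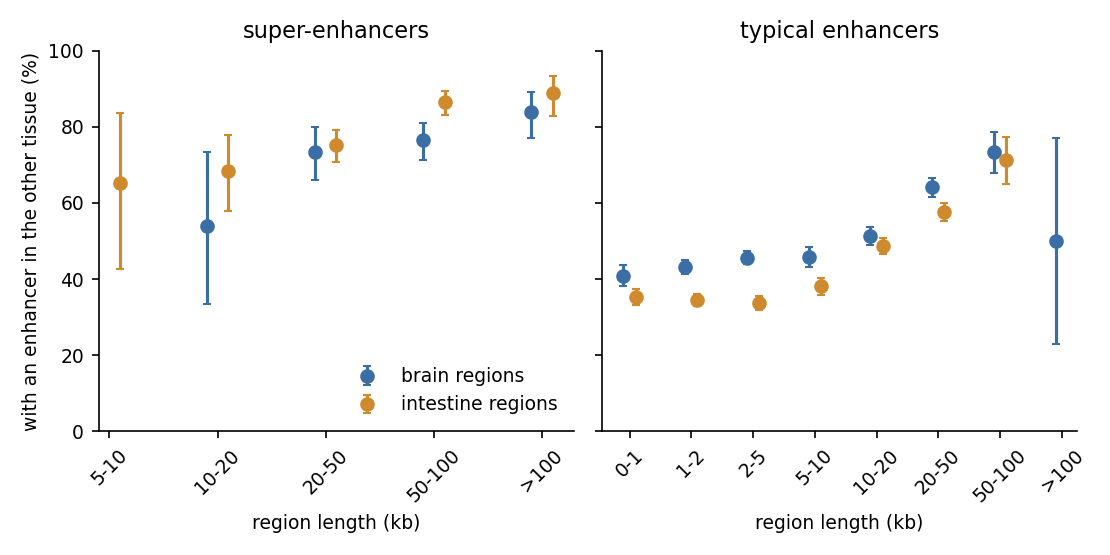
Points give the percentage of brain and intestine regions with an enhancer in the other tissue by region length in kb, for super-enhancers on the left and typical enhancers on the right, with exact 95% intervals over regions and classes of under 10 regions left out. Up to 100 kb the share was higher in long than in short typical enhancers of both tissues, while 7 of 14 brain typical enhancers over 100 kb were shared. Over 100 kb it was 83.9% of brain and 88.9% of intestine super-enhancers.

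Among private regions that shared no base pair with the other tissue, the distance to its nearest enhancer had a similar median in both classes and both tissues. It was 40.8 kb for 132 brain super-enhancers, 39.3 kb for 182 intestine super-enhancers, 39.0 kb for 6094 brain typical enhancers and 36.0 kb for 7852 intestine typical enhancers. Over 50 kb lay 40.9%, 40.1%, 43.0% and 38.5% of them, in the same order. Of the private super-enhancers, 24 in the brain and 38 in the intestine touched an enhancer of the other tissue without reaching the overlap. A private region could still be largely covered where neighbouring regions each took under 50% of the shorter length. This was seen in 3 brain and 4 intestine regions that were covered by at least 50%, among them the intestine typical enhancer chr4:14403201-14475399 (72.2 kb), covered by 80.6%.

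The strongest private typical enhancers were longer than the median super-enhancer of their tissue. In the brain, chr19:35979401-36139599 joined 21 loci over 160 kb, had rank 57 by signal and a density at percentile 25.1. It was followed by chr6:35178201-35307999 (130 kb, rank 140), chr3:30485001-30604399 (119 kb, rank 154) and chr23:8974201-9093199 (119 kb, rank 160). At chr6:35178201-35307999 no enhancer of either heart or the testis reached the overlap rule. In the intestine, chr13:45748201-45857599 joined 13 loci over 109 kb with rank 352 and a density at percentile 13.1. These regions were picked for their total signal, which favours long regions, and they had little signal per base pair.

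Density was read as the percentile of signal per base pair within a tissue, over both classes together. It was taken only over regions whose signal, times 10000, was a whole multiple of their length, because in the brain lists 10627 regions share a name, and with it a signal, with regions that are often of another length. Of the brain regions, 631 of 664 super-enhancers and 4865 of 12571 typical ones (38.7%) were kept, and all regions of the intestine. Super-enhancers in both tissues had the highest median density rank in each, more clearly in the brain than in the intestine. In the brain the median percentile was 65.2 (quartiles 49.7 and 84.3) for super-enhancers held by both, 49.2 for those facing typical enhancers only and 48.8 for private ones. Those of the intestine were 70.7 (50.1 and 85.4), 61.0 and 63.4 in the same order. Among typical enhancers, the medians of shared and private regions were 47.4 and 51.2 for brain, 52.5 and 46.4 for intestine, opposite in order. Just 2007 brain typical enhancers had a unique name, so many of the 4865 ranked ones shared a name and its signal. The brain order was not checked with unique names. The brain percentiles leave out 61.3% of its typical enhancers, and with regions of a unique name as the ranked set the first and last brain medians were 74.7 and 57.6.

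**Figure D3:**
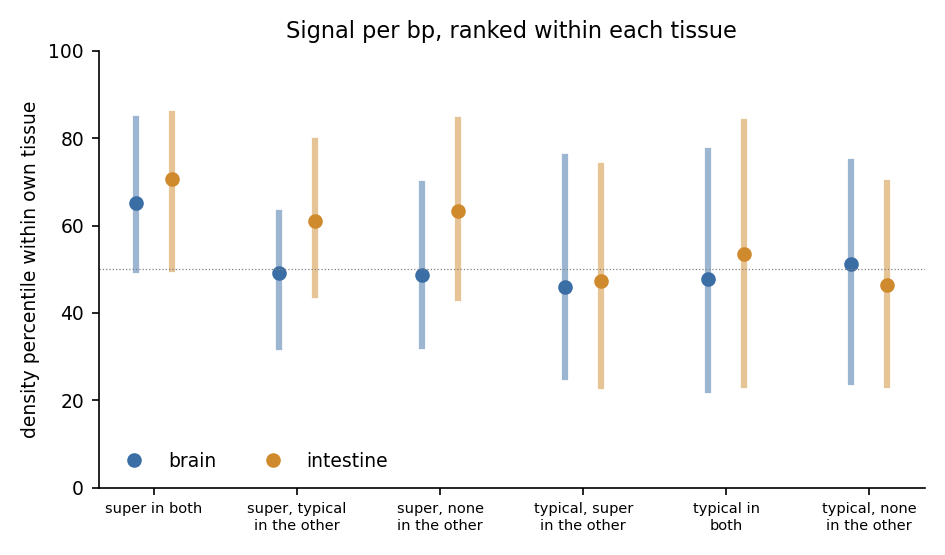
Points are the median and bars the quartiles of the density percentile within each tissue, by class and by state in the other tissue, over regions whose signal matches their length. Super-enhancers in both tissues stood highest, with medians of 65.2 in the brain and 70.7 in the intestine.

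Super-enhancers were also divided into 4 groups of near equal size by rank. In the group of brain super-enhancers with the highest density, 65 of 158 were super-enhancers in the intestine (41.1%, 33.4 to 49.2). The following groups held 30.4%, 19.0% and 11.5%, the last being 18 of 157 (6.94 to 17.5). Length did not run the same way, since the densest group had a median of 37.6 kb and the least dense 92.8 kb. In the intestine the shares were 17.8%, 17.5%, 12.2% and 11.9% from the densest to the least dense group, with overlapping intervals. In the same order the private shares were 23.4%, 19.0%, 22.8% and 29.3% in the brain. In the intestine they were 23.3%, 15.4%, 17.5% and 20.6%, highest in the densest group. Ranked by total signal, the intestine shares were 26.1%, 17.5%, 6.64% and 9.09% and the private shares 8.36%, 16.8%, 23.1% and 28.7%. The brain groups by total signal had private shares of 15.8%, 25.3%, 20.9% and 32.5% and shares in both of 29.1%, 20.9%, 30.4% and 21.7%. The share in both tissues thus stepped down with density in the brain, and with total signal, except for the last group, in the intestine. Length ran with total signal in both tissues. From the highest to the lowest group by total signal, the median length went from 101 to 26.0 kb in the intestine. In the brain it went from 129 to 34.2 kb, where the share in both tissues did not step down. The part of length in these gradients was not tested, nor was their difference between the tissues.

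Where a single super-enhancer of each tissue faced the other, their lengths and density ranks were loosely matched. There were 151 such pairs, with median lengths of 65.0 kb in the brain and 62.6 kb in the intestine, and the brain region was the longer in 78. Across the pairs Spearman's rho was 0.42 for length and 0.57 for density percentile, for which 143 pairs had a matching signal. These are descriptions, since both members of a pair lie at the same place in the genome.

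Sharing differed moderately between chromosomes. The shared share of brain regions was lowest on chromosome 14, at 41.5% of 532 regions (37.3 to 45.9), and highest on chromosome 22, at 62.4% of 383 (57.3 to 67.3). That of intestine regions was lowest on chromosome 13, at 39.3% of 647 (35.5 to 43.1), and highest on chromosome 4, at 51.2% of 469 (46.5 to 55.8). The medians over 25 chromosomes were 49.9% and 43.3%, and the brain share exceeded the intestine share on 22 of them. This order largely follows list size. The shared counts were near equal in both directions, and the brain list had more regions than the intestine list on just 2 chromosomes. In base pairs chromosome 22 again had the highest Jaccard index, 25.9%, and chromosome 2 the lowest, 15.6%. Across chromosomes the percentage of length in brain enhancers and in intestine enhancers had a Pearson r of 0.60 and a Spearman rho of 0.57 (n = 25), with length read from the last region end on that chromosome. The brain shared share had an r of 0.46 and a rho of 0.41 with the intestine percentage of length. In the other direction, the intestine shared share had an r of -0.07 and a rho of 0.02 with the brain percentage of length. All 25 points come from the same libraries.

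The balance of the tissues also varied by chromosome. Brain enhancers covered 0.687 times the base pairs of intestine enhancers on chromosome 13 and 1.11 times on chromosome 4, with more in the brain on 5 chromosomes. Chromosome 4 had the lowest enhancer cover in both tissues, 10.4% in the brain and 9.37% in the intestine. Brain super-enhancers numbered from 19 on chromosomes 2 and 13 to 51 on chromosome 7, and intestine super-enhancers from 25 on chromosome 25 to 77 on chromosome 3. Chromosome 25 was the single chromosome with more super-enhancers in the brain, 26 against 25 in the intestine. Of its brain super-enhancers 10 were private, and of those on chromosome 24 there were 8 of 24. Private intestine super-enhancers were 1 of 29 on chromosome 24, 17 of 77 on chromosome 3 and 17 of 52 on chromosome 13. Over all chromosomes, 23.5% of brain and 19.2% of intestine super-enhancers were private. The chromosomes named were picked from 25, and no intervals were taken for these counts.

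**Figure D4:**
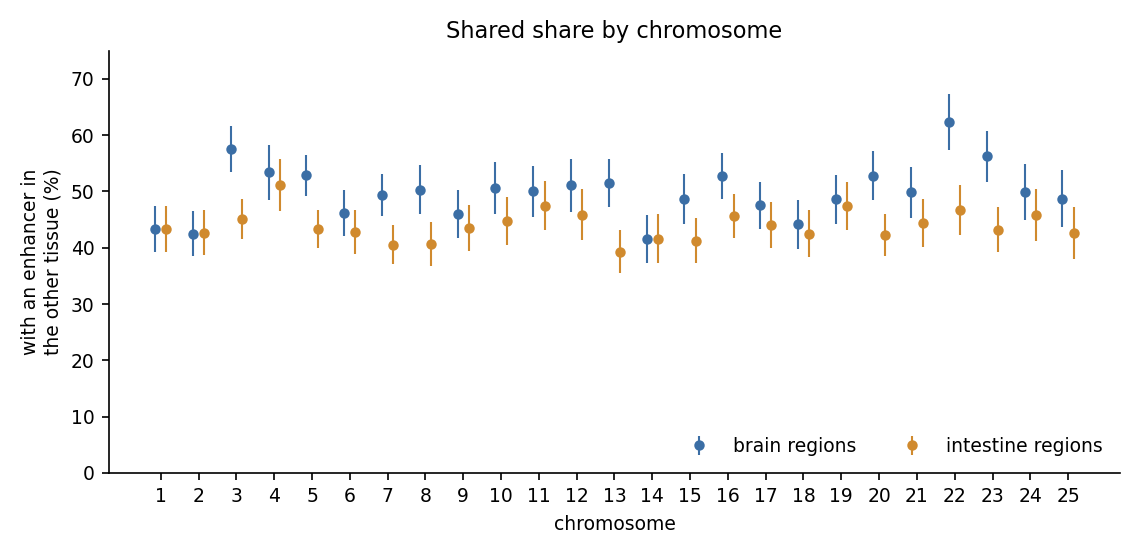
For each of the 25 chromosomes, points give the percentage of brain and of intestine regions with an enhancer in the other tissue, with exact 95% intervals over regions. The brain share peaks at 62.4% on chromosome 22 and the intestine share at 51.2% on chromosome 4.

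The other lists show how far these regions were held elsewhere, by the same overlap rule. Heart was profiled at both ages, at 10 months with 1 immunoprecipitated library and the fragment size of the brain, and at 1 year with 2 and the fragment size of the intestine, with 20 organs pooled per replicate at each age. Testis was profiled at 10 months with 2 immunoprecipitated libraries, 8 organs pooled per replicate and fragments of 175 bp, the age and fragment size of the brain. An enhancer in the heart at 1 year was found for 54.7% of all brain regions and 66.6% of all intestine regions, one in the heart at 10 months for 48.3% and 56.3%, and one in the testis for 32.7% and 33.2%. Super-enhancers in both brain and intestine were almost always found in the heart as well. Of the 169 in the brain, 167 had an enhancer in the heart at 1 year and 138 (81.7%) were super-enhancers there, and 142 (84.0%) had an enhancer in the testis. Of the 170 in the intestine, 170 had an enhancer in the heart at 1 year and 140 (82.4%) were super-enhancers there. Among all 1145 intestine super-enhancers, 96.9% met a 1-year heart enhancer, so 170 of 170 was close to the share of the class. For all 664 brain super-enhancers this share was 79.4%, and 66.7% met a testis enhancer. Heart super-enhancers at 1 year lay at 27.1% of these 664 and 46.6% of the 1145.

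Private super-enhancers of the tissues differed in this respect. Of the 156 brain super-enhancers without an intestine enhancer, 61 had one in the heart at 1 year (39.1%, 31.4 to 47.2), 71 in the heart at 10 months (45.5%, 37.5 to 53.7) and 68 in the testis (43.6%). Of the 220 intestine super-enhancers without a brain enhancer, 193 had one in the heart at 1 year (87.7%, 82.6 to 91.8), 185 in the heart at 10 months (84.1%, 78.6 to 88.7) and 122 in the testis (55.5%). In none of these 3 lists were 43 brain regions (27.6%) and 14 intestine regions (6.36%). The same shares were 36.7% and 26.8% over all regions of the brain and the intestine, and 8.13% and 1.48% over all their super-enhancers. Among private typical enhancers the shares in none of the 3 lists were 65.6% of 6501 in the brain and 41.2% of 8248 in the intestine. The intervals of the private brain and intestine super-enhancers did not overlap for the heart list of either age.

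**Figure D5:**
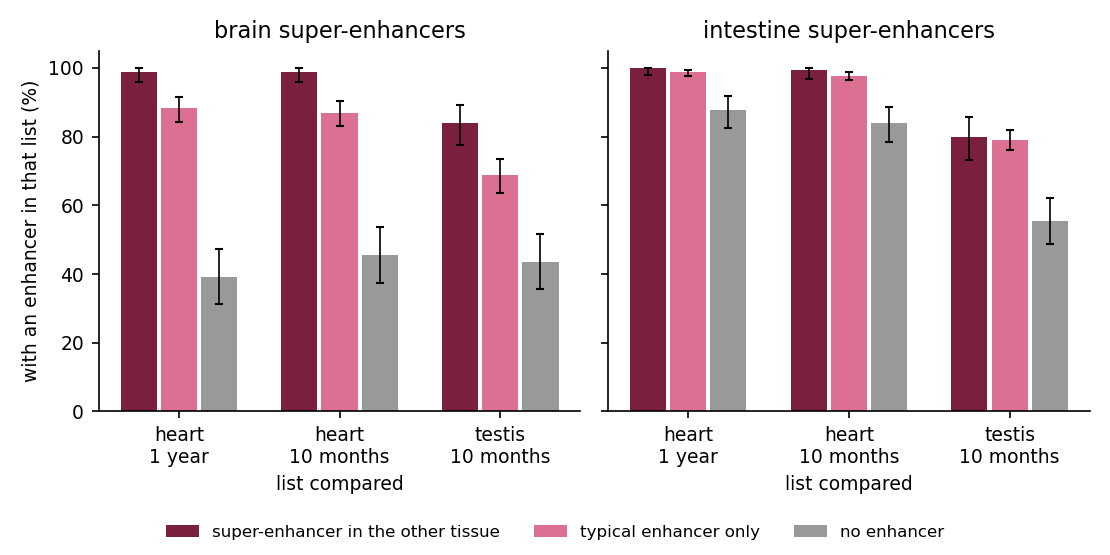
Bars give the percentage of brain super-enhancers on the left and intestine super-enhancers on the right that had an enhancer in the heart at 1 year, the heart at 10 months or the testis, by their state in the other tissue, with exact 95% intervals over regions. The bars for no enhancer in the other tissue stand at 39.1% for the brain and 87.7% for the intestine in the heart at 1 year.

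The Jaccard index of all enhancers was 19.9% for brain with intestine, 23.3% for brain with the heart at 1 year and 20.9% for brain with the heart at 10 months. For the intestine it was 44.0% with the heart at 1 year and 35.6% with the heart at 10 months. The heart list at 10 months covered 133 Mb and that at 1 year 213 Mb, and the index cannot exceed the ratio of the smaller to the larger list. This limit was 86.9% for brain with intestine, 80.4% for brain with the heart at 1 year and 77.5% for brain with the heart at 10 months. For the intestine it was 92.6% with the heart at 1 year and 67.3% with the heart at 10 months, so the indices are not ordered here.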

How the data were processed

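H3K27ac ChIP-seq and input libraries of brain and intestine of adult zebrafish, 8 of the 18 in the series, lie behind 4 region lists. Build Zv9 and, with no role or order, the tools SICER 1.1, bedtools 2.24.0, Bowtie2 2.1.0, SAMtools 0.1.8 and CASAVA are given per the submitters' processing notes. Not given in the sources used here: the program that joined loci, the super-enhancer threshold, the use of input and how replicates were combined. The deposited value of a region, headed as a density, is treated as a signal summed over the region, from its relation to length. In the intestine lists, signal times 10000 was a whole multiple of the length for every region, with no tolerance, and in the brain lists for 41.5%. In the brain lists 1663 names occur more than once, each with 1 signal. Regions of equal length that share a name cannot be told apart by this rule. Read counts were not used, so depth per sample is unknown.

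From the lists, overlaps, base pairs, lengths, ranks and chromosome shares were computed with Python 3.11.15, numpy 2.4.6, pandas 2.3.3, scipy 1.17.1, networkx 3.6.1 and matplotlib 3.10.9. Positions are printed from 1. The number of loci is the first number in a region's name, with 1 for the 241 brain and 1066 intestine regions whose name is a bare number. The overlap rule was tested on simulated data and recovered 100% of the states of 13194 brain regions over 400 bp with simulated partners. Each simulated partner had the length of its region and touched no other, so unequal lengths and several partners per region were not tested.

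Named regions are, for each state in the other tissue, the 4 with the highest signal among those with a matching signal, taken in each tissue for states of both, and the longest 3 typical enhancers of each tissue that lie at a super-enhancer of the other, of which the longest is printed. The members, lists and rules were chosen with earlier results of these data known. Overlap rule, regions kept, super-enhancer label and ranked set were each varied.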

Additional observations from a re-analysis of the deposited data

How the results depend on the processing

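Over 110 combinations of result and alternative, 48 values stayed inside the 95% interval of the reported value, or equal to it at 3 digits where it has none, and 62 moved. With any overlap of at least 1 bp, shared regions were 53.0% in the brain and 46.6% in the intestine, private super-enhancers 19.9% and 15.9%, intestine super-enhancers in both 17.1%, and the median private intestine typical enhancer 2.60 kb. Requiring 50% of both regions gave shared regions of 15.3% of brain and 13.5% of intestine, super-enhancers in both 16.9% and 9.78%, typical only 7.23% and 18.0%, private 75.9% and 72.2%. Private super-enhancers then had median lengths of 68.9 kb in the brain and 53.6 kb in the intestine, private typical enhancers 3.40 and 3.60 kb, and those private super-enhancers had a 1-year heart enhancer in 15.7% and 57.3%.

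Keeping only regions with a matching signal removed brain regions alone. Shared regions were then 54.0% of brain and 22.4% of intestine, and intestine super-enhancers were 40.7% typical only and 45.2% private. With unique names only, an alternative chosen after seeing the data, those last shares were 24.7% and 62.1%. At 3 kb or more, shared regions were 42.2% and 36.6%, typical only 33.1% and 52.4%, and private 41.4% and 32.8%. In the upper 50% of each list by signal, shared regions were 40.2% and 35.0%, super-enhancers in both 20.8% and 12.0%, typical only 39.5% and 51.8%, and private 39.8% and 36.1%. With equal numbers of super-enhancers, 20.9% and 20.0% were in both, 55.6% of brain ones were typical only and 13.6% of intestine ones private. Taking the longest regions as super-enhancers gave 62.9% typical only in the intestine.

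The Jaccard index of all enhancers was 15.6% with matching signal, 18.8% at 3 kb or more, 19.8% without chromosome 4 and 16.1% in the upper 50%, and that of super-enhancers 8.19%, 8.37% without chromosome 4 and 6.68% in the upper 50%. Density medians of super-enhancers in both were 59.1 in the brain with all regions ranked, 74.7 with unique names, and 61.2 in the intestine ranked within class. Those of private ones were 42.8 in the brain and 50.5 in the intestine within class, and 57.6 in the brain with unique names. By base pairs the shared shares were 46.5% for brain on chromosome 22, 27.1% for brain on chromosome 14, 40.1% for intestine on chromosome 4 and 26.3% for intestine on chromosome 13. The cause of moves other than by fewer or stricter matches was not tested. No paired analysis was possible because the lists hold no value per replicate, which also left no replicate to leave out. The nearby genes planned for naming were not run.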

Other observations

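Brain and intestine enhancers also formed long stretches without each other, here found after their values were seen by taking every gap between neighbouring regions of one tissue and adding up the regions of the other that lay inside. Brain regions lay in 3163 gaps of the intestine list, and in 99 of these the brain had at least 100 kb of enhancers. Intestine regions lay in 4000 gaps of the brain list, and in 53 of these the intestine had as much. The gap with the most brain enhancers was chr2:33973200-34815600, an interval of 842 kb with 12 brain regions, 1 of them a super-enhancer, that covered 347 kb. The gap chr2:37985000-39158800 held 24 brain regions over 317 kb, and chr16:46652800-47145200 held 5 over 307 kb, 2 of them super-enhancers. For the intestine the first was chr8:38503800-39652600, an interval of 1149 kb without a brain enhancer, in which 16 intestine regions, 2 of them super-enhancers, covered 279 kb. The gap chr18:46509600-47103800 held 5 intestine regions over 271 kb, and chr3:23863000-24405200 held 15 over 215 kb, 3 of them super-enhancers.

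The 33 brain super-enhancers whose signal did not match their length were shorter than the other 631, with a median of 38.2 kb against 68.6 kb. Of these 33, 8 were super-enhancers in the intestine, 18 met typical enhancers only and 7 met none. This was near the 25.5%, 51.1% and 23.5% of all 664 brain super-enhancers in the same states.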
